A study of Homo sapiens with 12 samples.

Results

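The comparison described here set the response of HCT116 cells to oligomycin A (OA) against their response to tunicamycin (TN). HCT116 is an established human colon cancer cell line. All 12 RNA-seq libraries of the series were used, in 4 groups of 3 libraries: OA, the DMSO control of the OA experiment, TN, and the DMSO control of the TN experiment. For each gene, the log2 fold change of TN against its DMSO was subtracted from that of OA against its DMSO, in 1 fit of all libraries. Every library came from wild-type cells harvested after 24 h, and DMSO was the vehicle of both stressors. The labels give 5 µg/ml for OA and for TN, whereas the study's methods give a higher dose for OA. Each experiment had its own DMSO libraries, so that a level in OA and a level in TN cannot be told apart from the experiment, while the difference between the changes is free of a fixed offset between experiments. The labels number biological replicates but do not say how the cultures were separated, and the p-values measure the spread between these libraries of a single cell line.

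OA blocks the proton channel of mitochondrial ATP synthase and stops oxidative ATP production. TN blocks DPAGT1, the enzyme that starts the assembly of the sugar chain for N-linked glycosylation, and unfolded glycoproteins then accumulate in the endoplasmic reticulum (ER). The ER answers through the sensors PERK, IRE1 and ATF6, the unfolded protein response (UPR), which raises chaperones and degradation factors. Mitochondrial faults are relayed through OMA1, DELE1 and the kinase HRI. PERK and HRI both phosphorylate eIF2alpha, which favours translation of ATF4 and is called the integrated stress response (ISR). The question was which transcripts moved alike under both stressors and which leaned to the mitochondrial or to the ER stressor.

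Libraries held 9884124 to 24983573 gene counts. Summed markers of the colon epithelial line stood at 4622 to 7281 CPM (here counts scaled by the raw library total, and for the genes below by the TMM-scaled total), although the enterocyte genes CDH17 and VIL1 were at or near 0, and those of leukocytes, fibroblasts and endothelium reached at most 1.19, 9.40 and 2.63 CPM. The libraries of TN and its DMSO with numbers 2 and 3 stood apart in interferon-stimulated genes (ISGs): IFIT1, an antiviral RNA-binding protein, was at 916 and 1009 CPM in DMSO and 256 and 287 CPM in TN, against 1.49 to 17.0 CPM in the other 8 libraries. OA replicate 2 stood apart in RN7SL1, the RNA of the signal recognition particle, which took 17.9% of its counts against 6.02 to 13.3% elsewhere. Deviations of single libraries from their group means followed transcript GC content, with correlations across genes from -0.69 to 0.68.

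Among 15429 genes tested, 1681 passed the test under OA (10.9%) and 1347 under TN (8.73%), with edgeR (quasi-likelihood test, Benjamini-Hochberg adjusted p under 0.05). Both stressors raised 512 genes (3.32% of those tested) and lowered 481 (3.12%). The 993 shared genes were 59.1% of the OA genes and 73.7% of the TN genes, and 0 genes (0%) passed in opposite directions in this edgeR fit. At an unadjusted p under 0.05 in both, 2 of 2512 genes had opposite signs. The number passing in opposite directions by DESeq2 and by voom was 0 and 18. By edgeR it was 1 with no filter on low counts and 1 without DMSO (TN) replicate 1. It was 1 with the replicate number as a block, 1 with an offset for GC content and 4 with both. Among the 688 genes that passed under OA alone, 673 had the same sign under TN, as had 338 of the 354 that passed under TN alone. Over the 9696 genes with a mean of at least 10 CPM in some group, called expressed here, the log2 fold changes had a Pearson correlation of 0.87 and a Spearman correlation of 0.85. That correlation is across genes, which share libraries and are not independent replicates.

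**Figure D1:**
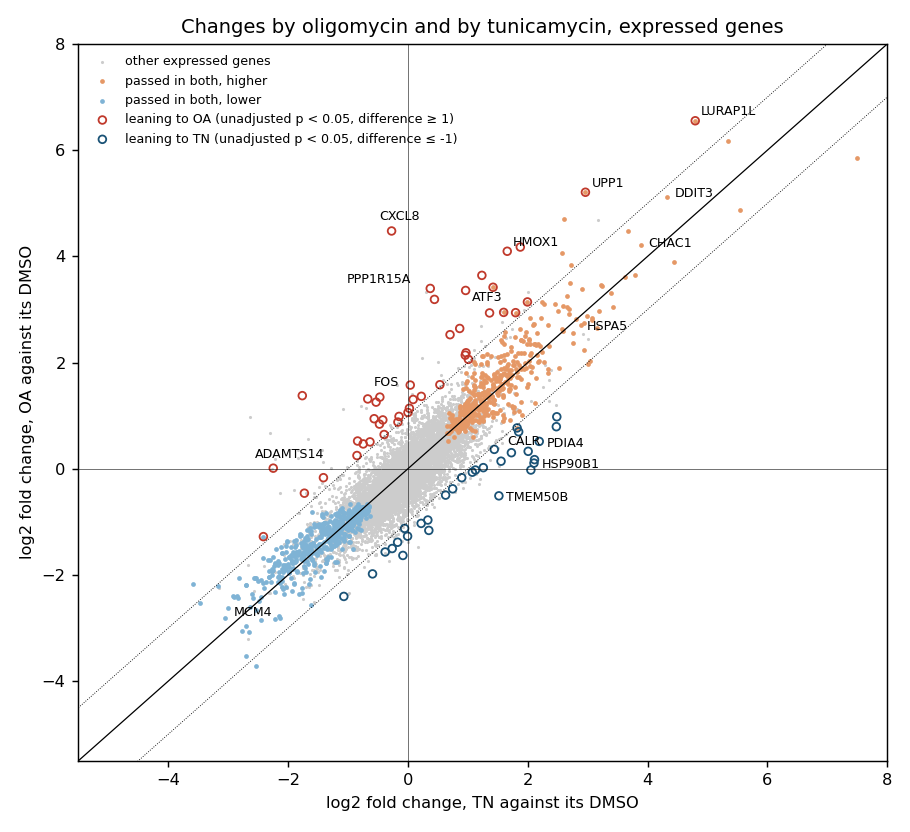
Log2 fold change of each expressed gene under OA (vertical axis) against that under TN (horizontal axis), with the line of equal change and dotted lines at a difference of 1. Genes that passed in both experiments fill the upper right and lower left, and open circles mark the 43 genes leaning to OA and the 30 leaning to TN.

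The gene numbers depended on single libraries and on the pairing. Same-numbered TN and DMSO libraries deviated together (correlations of 0.58, 0.34 and 0.36). OA and DMSO libraries did so for numbers 1 and 2 (0.58 and 0.51) but not for number 3 (0.08). With the replicate number as a block in both experiments, 3364 genes passed under TN, 1180 rose in both and 1399 fell in both. The number that rose in both was 279, 312 and 248 without DMSO (OA) replicate 1, 2 or 3, 297, 190 and 228 without DMSO (TN) replicate 1, 2 or 3, and 284 and 272 without TN replicate 2 or 3. The number that fell in both was 273, 238 and 228, then 272, 234 and 254, then 223 and 219 without the same libraries, and 316 without OA replicate 3. Leaving out any of the others left 361 to 482 shared rises and 424 to 499 shared falls. Scaling to total counts, under which the median log2 fold change over all genes went from -0.09 to -0.22 under OA and from -0.02 to -0.18 under TN, gave 477 shared rises and 736 shared falls, a share of rises of 39.3% against 51.6%.

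The difference between the stressors did not pass the test for any gene: 0 of 15429 (0%) had an adjusted p under 0.05 by edgeR's quasi-likelihood test, and the lowest adjusted p was 1.00. At an unadjusted p under 0.05 there were 348 genes (2.26%), 171 above 0 (1.11%) and 177 below 0 (1.15%). DESeq2 passed 2 genes, FOS and ADAMTS14, and limma's voom with library quality weights passed 44, of which 16 leaned to OA and 28 to TN, 14 of the 44 being in the ER folding list. With no filter on low counts edgeR passed 25, of which 22 leaned to OA and 3 to TN. The 22 included the ISGs RSAD2, IFIT2, IFIT3, OAS1, OASL and ISG20, a gene group that stood high in TN and DMSO (TN) replicates 2 and 3. The 95% interval of a difference had a median width of 0.93 to either side among expressed genes.

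In 389 of the 993 shared genes (178 higher and 211 lower) the 95% interval of the difference lay within 1 on the log2 scale in both directions, and in the rest it reached beyond 1. The shared rises had a median log2 fold change of 1.65 under OA and 1.53 under TN, and the shared falls of -1.36 and -1.43. In 18 of the 993 shared genes the difference had an unadjusted p under 0.05, a smaller share than the 2.26% of all tested genes. Of the 18 shared genes, 12 rose more under OA. The 3 that rose more under TN were SNCG (a synuclein), PDIA3 (an ER thiol oxidoreductase) and NUCB1 (a calcium-binding Golgi protein), named after their values were seen. The 3 shared falls of that kind, E2F7, PLK2 and CHEK2, fell more under TN. The directions of these genes are a description only.

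ISR genes were among the largest shared rises. DDIT3, which encodes the stress transcription factor CHOP, was at 8.56, 10.4 and 8.17 CPM in DMSO and 235, 535 and 179 CPM in OA. Its levels in the TN experiment were 10.8, 17.8 and 20.7 CPM in DMSO and 368, 310 and 313 CPM in TN. No treated library overlapped its controls in either experiment. DDIT3 rose by 5.12 ± 0.43 (SE) under OA and 4.33 ± 0.42 under TN on the log2 scale, with edgeR adjusted p of 0.000175 and 0.00033, and the difference of 0.79 had a 95% interval of -0.34 to 1.92 and was 0.18 without OA replicate 2.

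CHAC1, a glutathione-degrading enzyme induced by ATF4, rose from 4.78 to 6.82 CPM in DMSO to 82.4, 136 and 101 CPM in OA. In TN it reached 156, 90.4 and 73.7 CPM from 4.49 to 8.84 CPM in DMSO. The difference of 0.32 had an interval of -0.72 to 1.37. DDIT4, an inhibitor of the growth kinase mTORC1, rose by 4.48 ± 0.27 under OA and 3.67 ± 0.26 under TN, and its difference of 0.82 had an interval of 0.09 to 1.54. GDF15, a secreted stress cytokine, rose by 3.46 and 3.23, TRIB3, a pseudokinase that restrains ATF4 signalling, by 2.97 and 3.18, and SESN2, a leucine-binding regulator of mTORC1, by 3.38 and 2.90.

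Of the 17 tested members of the list of ISR factors and regulators, 13 rose under OA (against 5.79% of all genes) and 11 under TN (against 4.67%), 10 of them in both. The median log2 fold change was 2.97 under OA and 1.5 under TN, beside -0.09 and -0.02 over all genes. The median of the 17 differences was 0.32, or 0.11 without OA replicate 2 and 0.86 without TN replicate 1. It was -0.03 with TN number 1 and its DMSO as the only TN libraries. Of the 7 members that did not rise in both, ATF3, PPP1R15A and CDKN1A passed under OA alone and CEBPG under TN alone. ATF5, EIF4EBP1 and KLHL24 passed in neither. ATF4 itself rose by 1.30 ± 0.19 and 1.44 ± 0.19, with a difference of -0.15 (interval -0.73 to 0.44). Of 12 upstream kinases, eIF2B subunits and mitochondrial relay genes, beside 3.32% and 3.12% of all genes that rose and fell in both, EIF2AK3 (PERK) rose under OA (0.90 ± 0.24) and TN (1.26 ± 0.24), the eIF2B subunit EIF2B1 fell under both, and the other 10 did not pass.

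ATF4 is known to drive genes of amino acid uptake and synthesis. Of 11 transporters tested, 8 rose under OA (against 5.79% of all genes) and 7 under TN (against 4.67%), all 7 in both (against 3.32%), with median log2 fold changes of 1.65 and 1.47. They included SLC7A11, the cystine importer (2.36 and 2.75), SLC3A2, its heavy-chain partner (2.01 and 2.17), and SLC6A9, a glycine transporter (2.50 and 1.96). Of 18 genes of amino acid synthesis and one-carbon metabolism, 7 rose in both (against 3.32%), among them ASNS, asparagine synthetase (3.02 and 2.69), and PCK2, mitochondrial PEP carboxykinase (2.56 and 2.75). SHMT1, MTHFD1 and TYMS fell in both (against 3.12%). In neither list had a gene an unadjusted p of the difference under 0.05.

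The CHAC1 promoter is shown because CHAC1 is among the largest shared rises and its window holds the CARE letters TGATGNAA, a C/EBP-ATF element bound by ATF4, on the minus strand in capitals. The stretch is the 240 bases before the RefSeq start on GRCh38.p14.
CHAC1, chr15:40953231-40953470, plus strand: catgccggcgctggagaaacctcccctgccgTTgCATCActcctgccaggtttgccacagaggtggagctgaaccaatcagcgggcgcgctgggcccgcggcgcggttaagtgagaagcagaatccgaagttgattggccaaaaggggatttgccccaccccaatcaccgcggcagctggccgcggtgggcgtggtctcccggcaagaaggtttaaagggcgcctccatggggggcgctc
Of 355 RefSeq promoters matched to shared rises, 5.63% held these letters on either strand in the window from 250 bases before to 50 after the start, against 1.67% of the 10683 promoters matched to tested genes and 3.67% of all 27305 promoters. A match describes letters only.

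Other large shared rises had no place in the ISR list. By the smaller of both changes, the leading expressed genes were SPX (a neuropeptide; 5.86 and 7.5), LCN2 (an iron-binding lipocalin; 6.17 and 5.35), HKDC1 (a hexokinase; 4.88 and 5.54) and LURAP1L (6.55 and 4.80), whose difference of 1.76 (interval 0.42 to 3.09) also leaned to OA. LCN2 was at 10.9, 145 and 9.74 CPM in OA and 53.1, 24.7 and 27.5 CPM in TN, against at most 1.89 CPM in any DMSO library. OA replicate 2 held the highest level of LCN2 and of HKDC1. Without it the OA change was 3.73 for LCN2 and 3.44 for HKDC1. The LCN2 call was lost under OA in 2 and under TN in 6 of 12 fits that left out a library, and the interval of the LCN2 difference ran from -2.86 to 4.52. SPX was at 0 to 0.27 CPM in the 6 DMSO libraries, so that its fold changes rest on few control counts. IL20RB, a cytokine receptor subunit, PRPH, an intermediate filament, and BEST1, a chloride channel, rose by 3.61 to 4.44 in either experiment.

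Of 30 DNA replication genes tested, 27 fell under OA (against 5.11% of all genes) and 27 under TN (against 4.06%), the same 27 in both. The median log2 fold change was -1.76 under OA and -2.09 under TN, and 28 of the 30 differences lay above 0, that is toward a deeper change under TN. None of the 30 had an unadjusted p under 0.05, and the median difference of 0.27 was 0.12 without TN replicate 2, 0.66 without TN replicate 1, 0.64 by voom and 0.03 with TN number 1 and its DMSO as the only TN libraries. In bulk libraries, fewer cells of a type and less RNA per cell cannot be told apart. CDC6 and CDT1, which load the replicative helicase, and POLD1, the catalytic subunit of polymerase delta, did not pass in either experiment.

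MCM4, a subunit of that helicase, was at 526, 519 and 508 CPM in DMSO and 100, 33.1 and 118 CPM in OA. In the TN experiment it was at 551, 470 and 467 CPM in DMSO and 65.3, 55.9 and 63.9 CPM in TN. All treated libraries lay far below all controls. MCM4 fell by 2.63 ± 0.37 and by 3.01 ± 0.37 on the log2 scale, with a difference of 0.38 (interval -0.68 to 1.44). MCM6, another subunit, was at 195 to 214 CPM in DMSO and 44.4 to 84.6 CPM in OA, and at 159 to 218 CPM in DMSO and 39.9 to 44.6 CPM in TN.

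The MCM6 promoter is shown for a sequence feature that the fold changes did not use, the letters TTTNGCGC of E2F factors, which drive S-phase genes. Its 240 bases before the start hold them at 4 overlapping matches, in capitals, as a pair on opposite strands at each of 2 places.
MCM6, chr2:135876444-135876683, minus strand: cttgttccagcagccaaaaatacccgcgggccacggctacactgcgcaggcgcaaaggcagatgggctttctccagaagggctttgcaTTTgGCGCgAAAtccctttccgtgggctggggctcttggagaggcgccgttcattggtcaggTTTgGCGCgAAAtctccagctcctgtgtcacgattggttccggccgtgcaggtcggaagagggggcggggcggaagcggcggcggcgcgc
These letters were in 12 of 27 matched promoters of the replication list (44.4%) and 11.7% of 394 promoters of shared falls, against 3.02% of promoters of tested genes and 1.83% of all promoters.

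Of 23 mitosis genes tested, 15 fell under OA (against 5.11% of all genes) and 13 under TN (against 4.06%), all 13 in both (against 3.12%), with medians of -1.51 and -1.75. CCNA2, cyclin A2, fell by 2.09 and 2.45, and AURKA, a spindle kinase, fell by 1.26 and 1.69. Among the named shared falls, CCNE2 (cyclin E2), ZNF367 and ERCC6L fell by 2.71 to 3.05 in either experiment. HELLS and ESCO2 fell by 2.54 to 2.65, but lost their TN call in 9 and 7 of 12 fits that left out a library, and their OA call in 5 and 4. Of 13 cytosolic heat shock genes tested, 9 fell under OA and 5 under TN, beside the same shares of all genes, all 5 in both, including HSP90AA1 (-1.92 and -1.99) and HSPA8 (-1.51 and -1.28).

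**Figure D2:**
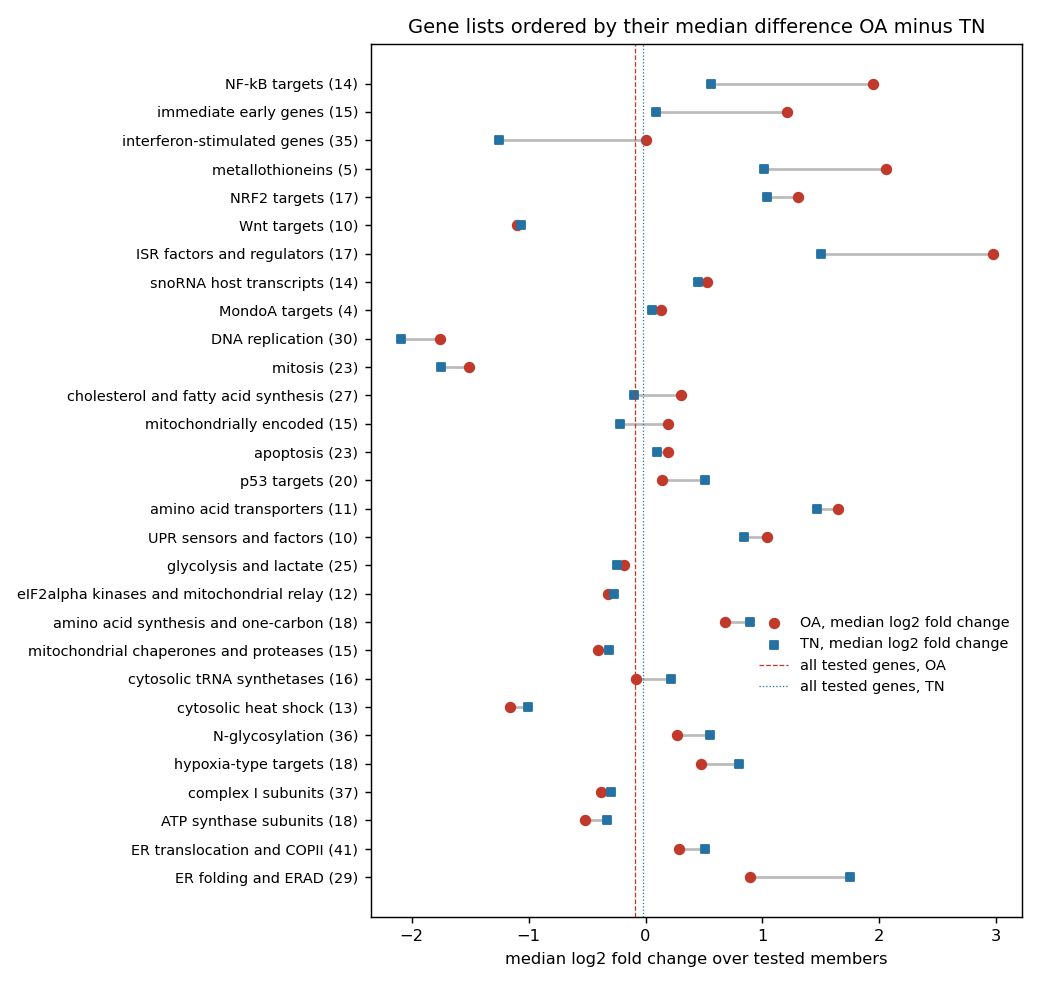
Median log2 fold change over the tested members of 29 gene lists (number tested in brackets) under OA (circles) and under TN (squares), ordered by the median difference, with the medians of all tested genes as vertical lines. The ISR, amino acid and replication lists lie on the same side in both, ER folding lies further right in TN, and the NF-kB and immediate early lists lie further right in OA.

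More ER chaperones passed the test under TN than under OA, a count whose difference was not itself tested. The ER folding and degradation (ERAD) list had 29 tested members, of which 9 rose under OA (against 5.79% of all genes) and 22 under TN (against 4.67%), all 9 in both, and 7 passed in neither. The median log2 fold change was 0.89 under OA and 1.75 under TN, and the median difference was -0.84, beside -0.06 over all genes. Of the 29 differences, 26 lay below 0 and 9 had an unadjusted p under 0.05 (2.26% of all genes), all 9 toward TN. Without OA replicate 2, which held the highest HSPA5, HYOU1 and CALR levels among OA libraries, the median difference was -1.02. It was -0.58 without OA replicate 3, -0.57 without TN replicate 3 and -0.55 with TN number 1 and its DMSO as the only TN libraries.

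Members that rose in both included the main chaperone. HSPA5, the Hsp70 of the ER lumen (BiP), was at 168, 149 and 166 CPM in DMSO and 647, 1940 and 577 CPM in OA. In the TN experiment it was at 156, 165 and 155 CPM in DMSO and 1266, 1205 and 1051 CPM in TN. The highest and the 2 lowest treated libraries were all OA. HSPA5 rose by 2.71 ± 0.39 and 2.89 ± 0.40, and the difference of -0.18 (interval -1.31 to 0.96) was -0.96 without OA replicate 2 and 0.23 without OA replicate 3.

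HYOU1, an ER nucleotide exchange factor, rose by 1.90 and 2.52, and HERPUD1, an ERAD scaffold, by 2.03 and 3.04. HERPUD1 was at 157, 401 and 137 CPM in OA and 485, 509 and 503 CPM in TN, without overlap between the treated groups, and its difference was -1.0 (interval -2.04 to 0.04). By voom, HERPUD1 (-1.67), HYOU1 (-1.38) and OS9 (-0.90) passed the test of the difference toward TN. EDEM1, EDEM2, OS9 and SYVN1, which select and ubiquitinate misfolded glycoproteins, rose by 1.15 to 1.67 under OA and 1.5 to 1.75 under TN. Of the 10 UPR sensors and factors, 5 rose in both (against 3.32% of all genes): ATF6, ERN1 (IRE1), XBP1, CREB3L2 and TMBIM6. The XBP1 difference was 0.05 (interval -0.60 to 0.70) and the ATF6 difference 0.26.

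PDIA4, a protein disulfide isomerase at chr7:149003062-149028662, was at 372, 377 and 315 CPM in DMSO and 429, 723 and 369 CPM in OA. In the TN experiment it was at 331, 379 and 351 CPM in DMSO and 1325, 1830 and 1690 CPM in TN. OA libraries overlapped their controls, and every TN library lay above every OA library. PDIA4 had a log2 fold change of 0.52 ± 0.25 under OA (edgeR adjusted p = 0.208) and rose by 2.19 ± 0.26 under TN (adjusted p = 0.000873). Its difference of -1.68 ± 0.35 (interval -2.44 to -0.91) had an unadjusted p of 0.000443, the lowest on the TN side, and an adjusted p of 1.00. By voom PDIA4 (-1.98) and CALR (-2.15) passed the test of the difference, both with an adjusted p of 0.000386.

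CALR, the calcium-binding lectin chaperone calreticulin, at chr19:12938578-12944489, was at 755, 980 and 810 CPM in DMSO and 625, 1860 and 712 CPM in OA. In the TN experiment it was at 843, 729 and 736 CPM in DMSO and 3344, 2845 and 3087 CPM in TN. The OA libraries with numbers 1 and 3 lay below all their controls and number 2 above them. The difference was -1.68 ± 0.48 (interval -2.73 to -0.62), -2.36 without OA replicate 2 and -1.35 without OA replicate 3. PDIA6, another disulfide isomerase, had a difference of -1.08 (interval -1.73 to -0.42), and DNAJB11, a BiP co-chaperone, of -1.42 (interval -2.43 to -0.42).

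HSP90B1, the ER Hsp90 (GRP94), had OA levels of 871, 299 and 360 CPM against 588, 312 and 459 CPM in DMSO. Its TN levels were 821, 3218 and 2947 CPM against 400, 579 and 636 CPM in DMSO. TN replicate 1 stayed within the range of the OA libraries, and replicates 2 and 3 stood well above it. CRELD2, a disulfide isomerase secreted on ER stress, had a difference of -1.69, SEL1L, the adaptor of the HRD1 ubiquitin ligase, of -1.51, and DNAJC3, a BiP co-chaperone that restrains PERK, of -2.0. Without OA replicate 2, a total of 4 genes passed the test of the difference in edgeR, all toward TN and all in this list: MANF (-2.01), PDIA4 (-2.03), CALR (-2.36) and CRELD2 (-2.56).

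**Figure D3:**
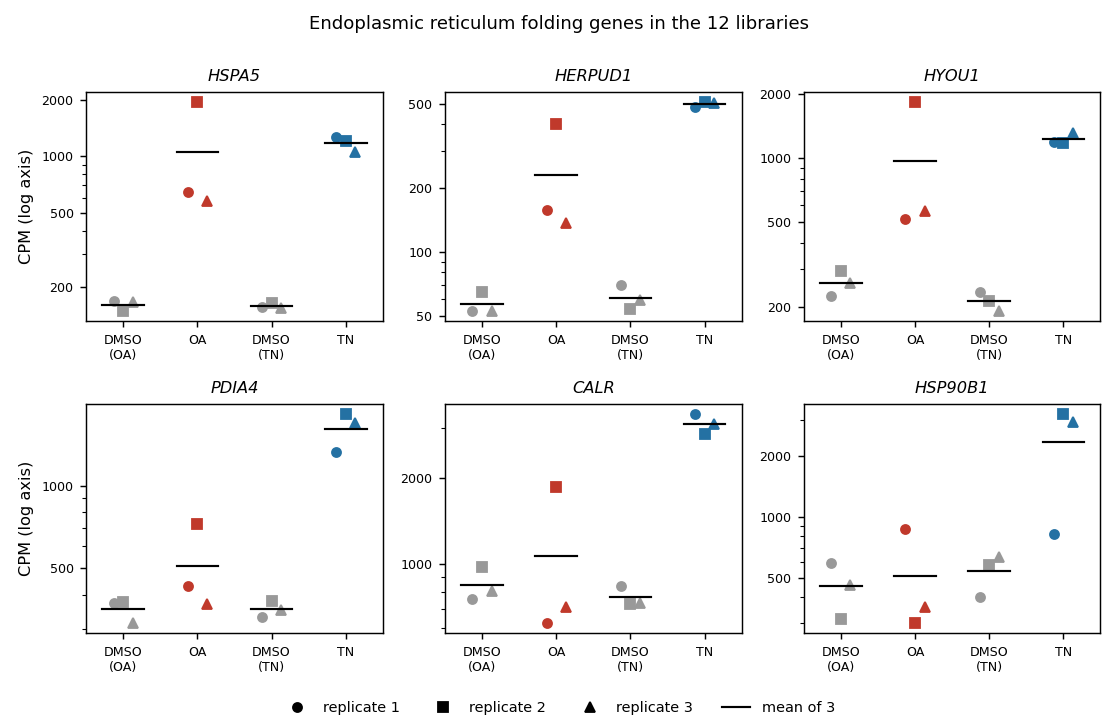
CPM on a log axis of 6 ER genes in each library by group, with a shape for each replicate number and a bar at the mean of 3. HSPA5, HERPUD1 and HYOU1 lie above DMSO in both OA and TN, while PDIA4 lies at 1325 CPM or more in TN and overlaps DMSO in OA.

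The promoters of 3 ER genes that rose in both (HSPA5, HERPUD1, HYOU1) and 3 that leaned to TN (CALR, HSP90B1, CRELD2) are shown. They were chosen because their windows hold ER stress elements, which are known from promoters of such genes. HERPUD1 and HYOU1 also passed the test of the difference toward TN by voom. Capitals mark the fixed letters of the ER stress elements ERSE (CCAAT and CCACG with 9 bases of any kind between them) and ERSE-II (ATTGG and CCACG with 1 base between them), known to be bound by ATF6 with NF-Y, on either strand. Each stretch is the 240 bases before the RefSeq start on GRCh38.p14, written in the gene's direction. HERPUD1 and HYOU1 are marked for ERSE-II and the others for ERSE, with 2 matches each in HYOU1 and HSP90B1.
HSPA5, chr9:125241344-125241583, minus strand: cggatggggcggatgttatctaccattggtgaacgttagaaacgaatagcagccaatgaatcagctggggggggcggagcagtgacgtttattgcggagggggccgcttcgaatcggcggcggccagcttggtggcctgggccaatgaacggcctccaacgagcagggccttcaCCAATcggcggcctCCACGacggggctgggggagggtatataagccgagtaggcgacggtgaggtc
HERPUD1, chr16:56931902-56932141, plus strand: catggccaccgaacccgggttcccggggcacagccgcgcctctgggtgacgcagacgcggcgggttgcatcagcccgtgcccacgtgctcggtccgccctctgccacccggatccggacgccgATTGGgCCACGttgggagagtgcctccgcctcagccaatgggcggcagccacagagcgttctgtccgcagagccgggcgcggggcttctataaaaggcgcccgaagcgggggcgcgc
HYOU1, chr11:119057206-119057445, minus strand: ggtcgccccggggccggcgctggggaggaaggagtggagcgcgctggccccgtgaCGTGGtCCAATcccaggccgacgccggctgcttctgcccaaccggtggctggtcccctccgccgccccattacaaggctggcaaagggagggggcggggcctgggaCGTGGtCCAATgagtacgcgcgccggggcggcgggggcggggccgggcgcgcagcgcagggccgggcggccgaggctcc
CALR, chr19:12938369-12938608, plus strand: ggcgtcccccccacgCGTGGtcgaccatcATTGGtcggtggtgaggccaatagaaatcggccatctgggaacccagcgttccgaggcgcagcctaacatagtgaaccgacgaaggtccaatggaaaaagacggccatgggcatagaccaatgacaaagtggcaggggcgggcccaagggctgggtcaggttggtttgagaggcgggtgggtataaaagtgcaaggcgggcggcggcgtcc
HSP90B1, chr12:103930170-103930409, plus strand: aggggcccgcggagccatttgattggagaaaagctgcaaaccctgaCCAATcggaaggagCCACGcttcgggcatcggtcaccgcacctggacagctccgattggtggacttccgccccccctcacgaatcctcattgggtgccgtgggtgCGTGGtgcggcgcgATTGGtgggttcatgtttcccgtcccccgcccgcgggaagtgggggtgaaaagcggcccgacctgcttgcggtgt
CRELD2, chr22:49918394-49918633, plus strand: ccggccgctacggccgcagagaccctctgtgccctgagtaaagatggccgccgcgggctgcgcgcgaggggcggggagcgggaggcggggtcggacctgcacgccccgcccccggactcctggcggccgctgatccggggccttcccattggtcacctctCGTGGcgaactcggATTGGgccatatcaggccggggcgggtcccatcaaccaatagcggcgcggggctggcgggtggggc
In the ER folding list, 6 of 27 matched promoters held ERSE (22.2%) and 3 held ERSE-II (11.1%), against 0.14% and 0.103% of promoters of tested genes and 0.0806% and 0.0549% of all promoters. Of 24 matched promoters of the 30 genes leaning to TN, 3 held ERSE (12.5%) and 0 held ERSE-II. The ERSE letters were present on both sides: in HSPA5, which rose under both stressors, and in CALR, HSP90B1 and CRELD2, which leaned to TN. ERSE was also in CANX and ERO1B, which did not pass in either experiment, and no match in a promoter says only that the exact letters are not in this window.

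Of 41 genes of translocation and COPII transport, 4 rose under OA (against 5.79% of all genes) and 8 under TN (against 4.67%), with a median difference of -0.24, and of 36 N-glycosylation genes 4 and 6 rose, with a median difference of -0.16. These medians were -0.04 and -0.04 without OA replicate 3, and 0.03 and -0.01 with TN number 1 and its DMSO as the only TN libraries. They were -0.39 and -0.41 by voom, and -0.29 and -0.30 without OA replicate 2. DPAGT1, the target of TN, did not pass in either experiment (0.61 ± 0.36 and 0.62 ± 0.36), and its difference was 0.00 with an interval of -1.11 to 1.10. TUSC3 and MAGT1, alternative subunits of the same oligosaccharyltransferase complex, pointed in opposite directions. TUSC3 rose under OA (2.17 ± 0.38) with 0.95 under TN, a difference of 1.22, while MAGT1 had 0.02 under OA and 1.26 under TN, a difference of -1.24. MAGT1 passed in neither experiment, and its difference passed by voom (-1.49).

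Among all expressed genes, 30 leaned to TN by at least 1 on the log2 scale with an unadjusted p under 0.05. Of them, 8 were in the ER folding list, which held 29 of the 15429 tested genes. Of the 30, 13 passed under TN (against 8.73% of all genes) and 9 under OA (against 10.9%), 8 of those 9 as falls (against 5.11%). The difference that chose the 30 contains both changes, so these numbers are a description only. The 10 with the lowest p included TMEM50B, a small membrane protein, at 14.4 to 30.3 CPM in OA, 25.5 to 41.9 CPM in DMSO and 54.4, 140 and 137 CPM in TN. SNCG rose in both experiments, by 0.77 and 1.82. THRA, the thyroid hormone receptor alpha, fell under OA (-0.97 ± 0.28) and was 0.33 ± 0.28 under TN. ANXA6, a calcium-dependent membrane-binding protein, passed in neither experiment, at -0.50 and 0.63. CYSRT1 and TTC17 rose under TN alone, with differences of -2.08 and -1.15. Of these 30, 3 were lower by 0.5 or more on the log2 scale in the DMSO of TN than in that of OA (3.34% of all expressed genes), and the median offset was -0.17.

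Genes leaning to OA were led by immediate early and stress-response transcripts. In 23 of the 43 expressed genes leaning to OA, the DMSO of TN lay at least 0.5 above the DMSO of OA on the log2 scale (8.13% of all expressed genes), and the median offset was 0.69. The difference that chose these genes contains this offset, so the number is a description only. FOS, a subunit of the AP-1 transcription factor at chr14:75278826-75282230, was at 10.8, 7.59 and 9.83 CPM in DMSO and 22.3, 30.5 and 19.2 CPM in OA. In the TN experiment it was at 30.8, 24.3 and 25.5 CPM in DMSO and 23.2, 19.0 and 16.0 CPM in TN. OA libraries all lay above their controls and TN libraries all below theirs, while OA and TN themselves overlapped. FOS rose by 1.35 ± 0.25 under OA and was -0.47 ± 0.25 under TN, with a difference of 1.82 (interval 1.05 to 2.59) and the lowest unadjusted p of all genes, 0.000241.

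PPP1R15A (GADD34), the phosphatase subunit that reverses eIF2alpha phosphorylation, was at 20.6, 28.1 and 21.7 CPM in DMSO and 93.2, 554 and 93.6 CPM in OA. In the TN experiment it was at 27.1, 84.2 and 71.1 CPM in DMSO and 105, 67.9 and 63.8 CPM in TN. The DMSO libraries with numbers 2 and 3, which also held the high ISGs, lay within the range of TN, and number 1 lay below it. The difference was 3.02 (interval 1.06 to 4.98) over all libraries, 1.62 without OA replicate 2, and 1.41 with TN number 1 and its DMSO as the only TN libraries. That last fit leaves 1 library in each TN group, which is then assumed to vary like the other groups.

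ATF3, an ATF4-induced repressor, was at 14.4 to 15.4 CPM in DMSO and 77.1, 313 and 65.9 CPM in OA, and 16.3, 47.4 and 40.1 CPM in DMSO and 75.4, 61.0 and 66.1 CPM in TN. All treated libraries lay above their controls in both experiments, although ATF3 passed under OA alone (3.36 ± 0.58 against 0.96 ± 0.53). Its difference of 2.40 was 1.30 without OA replicate 2 and 1.09 with TN number 1 and its DMSO alone. CXCL8, a neutrophil chemokine induced by NF-kB, had the largest difference among the named genes, 4.75, with DMSO levels in the TN experiment of 0.22, 29.7 and 33.5 CPM. With TN number 1 and its DMSO alone the CXCL8 difference was 0.01.

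**Figure D4:**
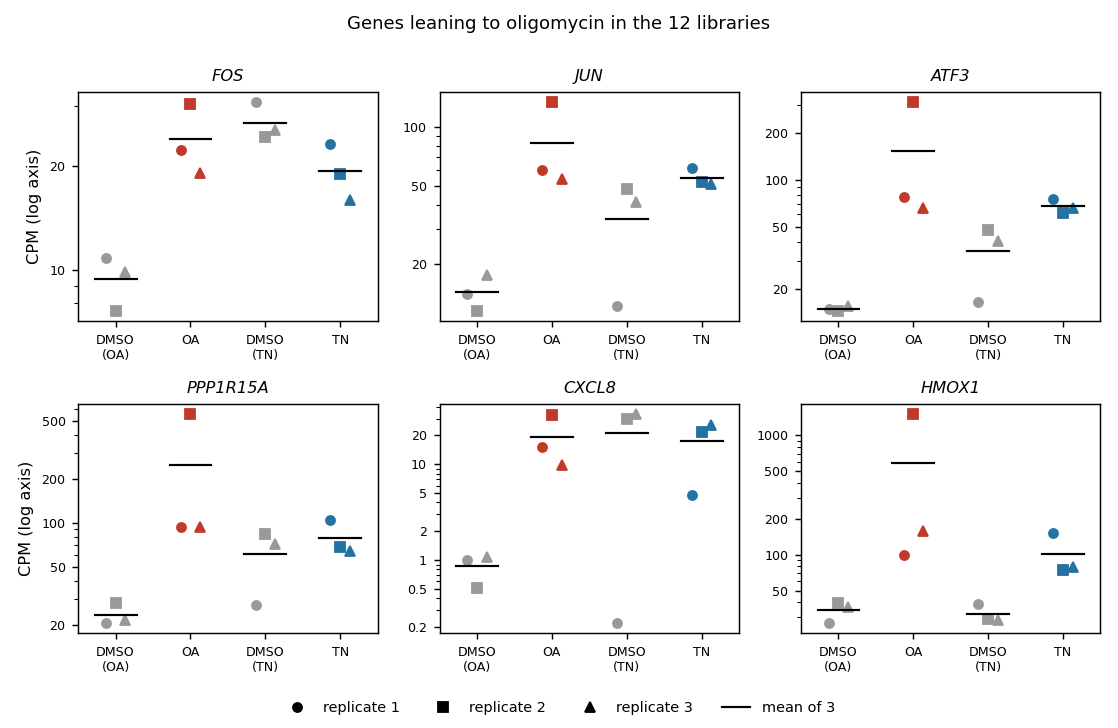
CPM on a log axis of 6 genes leaning to OA in each library by group, with a shape for each replicate number and a bar at the mean of 3. DMSO (TN) replicates 2 and 3 lie above replicate 1 in JUN, ATF3, PPP1R15A and CXCL8, and OA replicate 2 is the highest OA library in all 6 panels.

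As groups, 15 of 15 immediate early genes had a difference above 0 (median 1.2), as had 13 of 14 NF-kB targets (median 1.4). Under OA, 7 immediate early genes rose (against 5.79% of all genes), among them JUN (2.52 ± 0.48), another AP-1 subunit, and IER2. The only member that passed under TN was MYC, which fell (-1.21 ± 0.26). Unadjusted p of the difference was under 0.05 for 4 and 5 members of these lists (against 2.26% of all genes). The medians were 0.61 and 0.84 without OA replicate 2, and 0.38 and 0.41 with TN number 1 and its DMSO as the only TN libraries. The leaning genes were chosen by the difference in these same libraries, so kept directions were largely set by the choice and are a description only. Of the 43 genes leaning to OA, 43 kept their direction without OA replicate 2 and 31 stayed at 1 or more. With TN number 1 and its DMSO alone, 40 kept it and 17 stayed at 1 or more. For the 30 leaning to TN these numbers were 30 and 22, then 30 and 25. Of these 30, 18 stayed at 1 or more without TN replicate 1, 20 without DMSO (OA) replicate 2 and 19 by voom. Of the 43 leaning to OA, 43, 43 and 29 did so.

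ADAMTS14 and E2F7 leaned to OA and fell under TN, with DMSO offsets of -0.34 and -0.03. ADAMTS14, a procollagen peptidase at chr10:70672506-70762441, was at 9.89 to 11.9 CPM in DMSO and 14.4, 6.88 and 10.7 CPM in OA, and at 7.32 to 9.24 CPM in DMSO and 2.18, 2.15 and 0.956 CPM in TN. It fell under TN (-2.25 ± 0.36) and was 0.01 ± 0.33 under OA, where it overlapped its controls, and its difference of 2.26 ranged from 1.97 to 2.57 when single libraries were left out. E2F7, a repressor of E2F targets, fell in both, by 1.28 ± 0.23 under OA and 2.41 ± 0.24 under TN, with a difference of 1.13. SAT1, which acetylates polyamines, rose under OA alone, and its DMSO levels were 1.05 higher in the TN experiment.

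**Figure D5:**
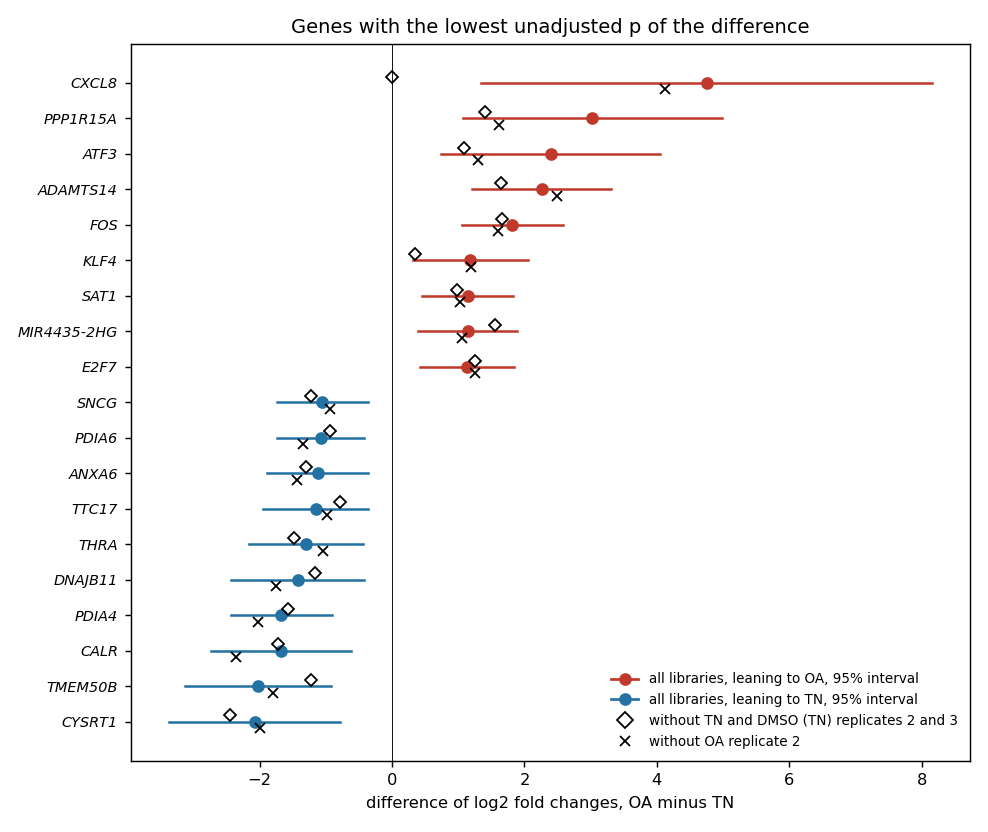
Difference of log2 fold changes, OA minus TN, with its 95% interval for leaning genes with a low unadjusted p over all libraries. Diamonds give the value with TN replicate 1 and its DMSO as the only TN libraries and crosses the value without OA replicate 2, and the diamond of CXCL8 lies at 0.01 while that of PDIA4 lies at -1.57.

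For several oxidative stress and metal genes the difference was smaller without OA replicate 2. Of 17 targets of NRF2, the antioxidant transcription factor, 11 rose under OA (against 5.79% of all genes) and 6 under TN (against 4.67%), all 6 in both (against 3.32%), with a median difference of 0.39 that was -0.07 without OA replicate 2 and 0.76 without OA replicate 3. HMOX1, which degrades haem, was at 26.9 to 39.5 CPM in DMSO and 98.6, 1499 and 159 CPM in OA, and at 28.4 to 38.3 CPM in DMSO and 151, 73.8 and 78.2 CPM in TN. OA replicate 2 alone lay far above TN. The HMOX1 difference of 2.44 was 0.25 without OA replicate 2, and that of SRXN1, a peroxiredoxin repair enzyme, went from 2.30 to 1.05. The metal-binding MT1X and MT2A rose under OA (2.93 and 2.06) and were 1.36 and 1.01 under TN, with differences of 1.57 and 1.05, or 0.73 and 0.62 without OA replicate 2. Over the 5 metallothionein genes tested, the median difference was 0.51, 0.62 without that library and 1.07 without TN replicate 1.

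Of 35 interferon-stimulated genes (ISGs) tested, ISG20 was the only one that passed, as a rise under OA (against 5.79% of all genes). The list had median log2 fold changes of 0.00 and -1.26, and 33 of 35 differences lay above 0. The summed picture followed the libraries: the median ISG level relative to the mean of all libraries was 2.81 and 3.03 in DMSO (TN) replicates 2 and 3, 1.47 and 1.63 in the same-numbered TN libraries, and -1.67 to -0.51 in the other 8. Within same-numbered TN pairs the level was lower in TN each time, also in number 1 (-1.42 and -1.46). With TN number 1 and its DMSO alone, the median difference of the list went from 0.98 to 0.19.

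The 15 mitochondrially encoded RNAs had median log2 fold changes of 0.19 under OA and -0.21 under TN, and 11 differences lay above 0 and 4 below, from -1.54 to 1.31. Their median difference of 0.16 was 0.04 without DMSO (TN) replicate 1 and 0.46 without TN replicate 1. It was -0.02 with TN number 1 and its DMSO as the only TN libraries. These RNAs took 0.121 to 0.213% of counts, and the 4 that passed did so under OA (against 10.9% of all genes). MT-CO1, MT-CO3 and MT-RNR2 rose under OA, by 0.79, 0.79 and 1.66, and had 0.63, 0.66 and 0.58 under TN. The differences of 2 of the 15 had an unadjusted p under 0.05 (2.26% of all genes), MT-ND6 toward TN and MT-ND4L, another complex I subunit, toward OA (1.03, interval 0.16 to 1.89). MT-ND6, the only complex I gene on the light strand, fell under OA (-1.45 ± 0.25) from 10.9 to 15.6 CPM to 3.81 to 5.76 CPM, and was -0.51 ± 0.25 under TN. The strand setting of the deposited counts is not given in the sources used here, so reads of MT-ND6 and of the RNA opposite it may not be told apart. Of 18 ATP synthase subunits, the target complex of OA, 5 fell under OA (against 5.11% of all genes) and 1 under TN (against 4.06%), and all 18 differences lay below 0 with a median of -0.24, beside -0.06 over all genes. ATP5PB, the peripheral stalk subunit, fell by 0.81 ± 0.18 under OA and was -0.34 ± 0.18 under TN. The ATP synthase median was -0.43 without DMSO (TN) replicate 1, -0.05 without DMSO (OA) replicate 2 and 0.00 without TN replicate 1, where the median over all genes was 0.12.

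Of 37 nuclear complex I genes, 5 fell under OA (against 5.11% of all genes) and 1 rose, with a median difference of -0.22 that was -0.01 without DMSO (OA) replicate 2 and 0.09 without TN replicate 1. Of 15 mitochondrial chaperones and proteases 4 fell under OA and 1 under TN (against 4.06%). Over all genes, 5.79% rose under OA, 4.67% under TN and 3.32% in both, and 3.12% fell in both. Of 16 cytosolic tRNA synthetases, 3 rose and 1 fell in both. Of 20 p53 targets, 6 rose under OA and 5 under TN, 5 of them in both, and of 18 hypoxia-type targets 4 and 6 rose, 4 in both. Among 23 apoptosis genes, 2 rose in both. Of 14 snoRNA host transcripts, 2 rose in both, and the median difference of 0.31 was -0.11 without OA replicate 2 and 0.68 without TN replicate 1.

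Of 25 glycolysis genes, SLC2A3, a glucose transporter, rose in both (against 3.32% of all genes), and LDHA and PGAM1 fell in both (against 3.12%). SLC2A1, another glucose transporter, was at 123 to 169 CPM in DMSO and 186, 244 and 198 CPM in OA, and at 120 to 134 CPM in DMSO and 105, 101 and 97.4 CPM in TN. It passed in neither experiment (0.55 ± 0.19 and -0.33 ± 0.19), and its difference was 0.88 (interval 0.30 to 1.45). The 27 cholesterol and fatty acid genes had median log2 fold changes of 0.30 and -0.10, and the median difference of 0.25 ran from -0.23 without DMSO (TN) replicate 1, and -0.22 without OA replicate 2, to 0.92 without DMSO (OA) replicate 2 and 1.01 without TN replicate 1. Of 10 Wnt targets tested, 4 fell under OA (against 5.11% of all genes) and 4 under TN (against 4.06%), 3 in both (against 3.12%). AXIN2 and DKK1 were among these 3, with differences of 1.41 and 0.95 and intervals that included 0. The DKK1 difference passed by voom (1.58, adjusted p = 0.0496).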

How the data were processed

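RNA-seq was performed on 12 libraries of HCT116 cells in 4 groups of 3. Per the study's methods, the authors aligned reads to hg38 with STAR and made the deposited raw read counts per gene with its gene count option on a Gencode annotation. The labels name a stranded total RNA kit, and the strand setting of the counts is not given in the sources used here. The authors' own result tables, which hold fold changes and p-values, were not used. Library totals ran from 9884124 to 24983573 counts, which sets the precision of low genes.

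Genes kept by edgeR's filterByExpr (15429) were scaled by TMM and fitted over all 12 libraries with edgeR's quasi-likelihood test (edgeR 4.0.16, limma 3.58.1, R 4.3.3). Contrasts were OA against its DMSO, TN against its DMSO, and their difference, each with Benjamini-Hochberg adjustment over all genes at 0.05. Standard errors and 95% intervals came from the same fit, and CPM values of genes used TMM-scaled library totals, those of the cell-type markers raw totals. The code was tested on simulated data.

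Named genes were the 10 shared rises and 8 shared falls with the largest smaller change, the 10 expressed genes with the lowest unadjusted p leaning by at least 1 to each stressor, 2 members per list by the same p, and DPAGT1, HSPA5, DDIT3, ATF4 and XBP1. Other genes, among them HERPUD1, HYOU1, HSP90B1, CRELD2, SEL1L, DNAJC3, MANF, JUN and GDF15, were named after their values were seen. Some genes that this rule names are not reported here. The comparison, members and 29 lists were chosen with earlier results of these data known. Gene coordinates are those of Gencode on hg38, and promoter sequences are from RefSeq on GRCh38.p14, whose table matched 10683 tested genes.

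Deviations from group means correlated between same-numbered DMSO and treated libraries at 0.58, 0.51 and 0.08 in the OA experiment and 0.58, 0.34 and 0.36 in the TN experiment. Across numbers 1 and 2 the OA experiment gave -0.49 and -0.57, and across numbers 2 and 3 the TN experiment gave 0.31 and 0.35. The correlations did not settle the pairing of all libraries in either experiment. The main fit used no pairing, and the replicate block paired libraries by number in both experiments. Alternatives were DESeq2 1.42.0, voom with quality weights, other scalings and filters, a replicate block, a GC offset, separate fits and leaving out each library. Fits on TN libraries with high or low interferon-stimulated genes were chosen after seeing the data.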

Additional observations from a re-analysis of the deposited data

Results flagged for a closer look

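In 4 named genes every OA library lay on one side of its controls and every TN library on the opposite side of its own. Among all tested genes 22 (0.143%) had this layout, against 3009 (19.5%) that lay on the same side in both experiments. The 4 genes were named for a low unadjusted p of the same difference, so their layout is a description only. FOS (difference OA minus TN of 1.82), SLC2A1 (0.88) and the long non-coding RNA MIR4435-2HG (1.14) were higher than DMSO in OA and lower in TN. MIR4435-2HG was at 14.3 to 19.6 CPM in DMSO and 20.3 to 26.0 CPM in OA, and at 14.5 to 16.1 CPM in DMSO and 6.82 to 11.6 CPM in TN. THRA (-1.30) was lower in OA, at 7.06 to 15 CPM against 17.4 to 26.5 CPM, and higher in TN, at 18.8 to 24.3 CPM against 17.1 to 18.2 CPM. Each of the 4 had an adjusted p of 1.00 with edgeR (quasi-likelihood test, Benjamini-Hochberg).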

How the results depend on the processing

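The main limits were 3 libraries a group, differences between libraries that the groups do not explain, and intervals near 1 on the log2 scale. Genes passing the test of the difference numbered 2 by DESeq2, 25 with no filter on low counts, 44 by voom, and 0 to 4 when single libraries were left out. Genes passing under OA and TN and shared rises were 2618, 2160 and 823 by DESeq2, and total-count scaling gave 736 shared falls. By OA, TN, shared rises and shared falls, a GC offset gave 3530, 2923, 904 and 1283, and voom 4732, 5329, 1475 and 1604. Separate fits gave 658 OA genes, 258 shared rises and 155 shared falls. With the high-interferon TN libraries alone, 692 genes passed under TN and 258 rose in both, and with the low-interferon pair alone 621 passed under OA, 0 under TN, and 0 rose or fell in both. That last fit has 1 library in each TN group. Leaving out single libraries gave 676 to 2152 OA genes, 513 to 2134 TN genes, 190 to 482 shared rises and 219 to 499 shared falls. OA genes were 776, 801 and 676 without DMSO (OA) replicates 1, 2 and 3, and 1117 without OA replicate 2. TN genes were 860 without DMSO (OA) replicate 3, 2134 without OA replicate 2, 728, 513 and 571 without DMSO (TN) replicates 1, 2 and 3, and 617 and 594 without TN replicates 2 and 3.

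With the replicate block, 4388 genes passed under OA, 3364 under TN, 1180 rose in both, 1399 fell in both and the difference passed for 0 genes. With the block and a GC offset these were 4877, 4088, 1256 and 1820. Same-numbered OA libraries did not all deviate together. TN libraries 2 and 3 correlated with DMSO across numbers at 0.31 and 0.35 and within numbers at 0.34 and 0.36. The cause of these shifts was not tested.

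The totals in this paragraph leave out the fits without single libraries, which are given as ranges. Of 920 differences of named genes under the other settings, 882 kept their direction and side of the threshold, 23 newly passed and 15 changed sign. DPAGT1 was 0.0744 by DESeq2 and with its size factors, 0.0773 with no filter, 0.000112 with the stricter filter and 0.10 with the high-interferon TN libraries. By voom, SLC7A1 was -0.0236, CREB3 -0.23 and XBP1 -0.10. With the low-interferon pair, EIF2AK3 was 0.0544, SLC6A9 -0.0371, LARS1 0.10, CLPX 0.14, CXCL2 -1.12, DDIT3 -0.0312 and XBP1 -0.16. Over fits without single libraries, SLC7A1 ran from -0.0358 to 0.61, CREB3 from -0.63 to 0.86, DPAGT1 from -0.64 to 0.36, HSPA5 from -0.96 to 0.23, ATF4 from -0.24 to 0.10 and XBP1 from -0.21 to 0.30. Of 460 fold changes of shared genes, 36 lost their call. Of 348 list medians, 330 moved by less than the spread between libraries.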
